A study of Mus musculus with 8 samples.

Results

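Nonsense-mediated decay (NMD) genes were followed in mouse germinal vesicle (GV) oocytes, which are arrested before meiotic maturation and still have an intact nucleus. The genes were Upf1, Upf2, Upf3a, Upf3b, Smg1, Smg5 and Smg6, and their probe sets were those whose only gene symbol in the platform annotation is one of these names. This gave 12 of the 45101 probe sets on the array, for 5 of the 7 genes, out of 18193 genes with a probe set of a single symbol: 1 for Upf1, 2 for Upf2, 4 for Smg1, 2 for Smg5 and 3 for Smg6. Upf3a and Upf3b matched no probe set by this rule and were not analysed here.

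Total RNA of 8 samples was hybridised to single-colour Affymetrix arrays, with 15 µg of biotin-labelled cRNA on each. The untreated group held 4 samples of GV oocytes, and the milrinone group held 4 samples of GV oocytes kept in culture for 48 h with milrinone, which inhibits the phosphodiesterase PDE3A and so holds oocytes in meiotic arrest. The labels give no strain, age, genotype or number of pooled oocytes, and no sample cultured without the drug, so the drug and the culture cannot be told apart. They do not say whether replicates were separate collections, and p-values therefore measure only the spread between these samples. Equal masses of cRNA were loaded, which makes every level relative to the rest of the labelled cRNA of its sample. The series title asks about the stability of transcripts in fully grown oocytes.

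NMD is the pathway that degrades mRNAs whose translation ends at a premature stop codon, and it also lowers many normal mRNAs. The helicase UPF1 joins the terminating ribosome, UPF2 and the UPF3 proteins link it to exon junction complexes, and the kinase SMG1 phosphorylates it. Phosphorylated UPF1 then recruits the endonuclease SMG6 and the adaptor SMG5, which leads to shortening of the poly(A) tail and decapping. A fully grown oocyte makes little new RNA and lives on stored mRNA, so its decay machinery acts on messages that are not replaced.

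Values are intensities on a linear scale, and a probe set is called listed on the arrays where it has a value and empty on the others. Arrays listed 18605 to 23269 probe sets, or 41.3% to 51.6% of all. They listed 6 to 9 of the 12 NMD probe sets. Untreated 1 was the array least like the others (median correlation 0.930, where the remaining arrays had 0.966 to 0.980). The oocyte markers filled 10 of 10 probe sets on each array, with summed intensities of 110066 to 128028 in untreated and 111529 to 120326 in milrinone samples. Markers of cumulus, granulosa and theca cells, the somatic cells around the oocyte, filled 19 to 24 of 27 probe sets in untreated and 8 to 15 in milrinone samples. Their intensities summed to 85758 on untreated 1, to between 19616 and 22783 on untreated 2 to 4, and to between 2690 and 3760 in milrinone, where Star and Cyp17a1 were empty on all arrays. Amh was empty on all arrays of both groups. Blood, stromal and endothelial markers summed to 1389 to 7996 and to 569 to 734, filling 8 to 11 and 3 to 4 of 15 probe sets, and Lyz2, Hba-a1, Col1a1 and Col1a2 were empty on all milrinone arrays and Pecam1 on all arrays of both groups. In such bulk samples, fewer cells of a type and less RNA per cell cannot be told apart. The part of these other cells in the NMD values was not tested.

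No NMD gene passed the test between the groups. Of the 12 probe sets, 7 had values on 3 or more untreated and 3 or more milrinone arrays and were tested, at least 1 for each of the 5 genes. Of these 7, 0 passed at an adjusted p under 0.05 (limma with Benjamini-Hochberg adjustment over 16288 probe sets), where 0.117% of all tested probe sets passed. At an unadjusted p under 0.05 there was 1 of 7, Upf1, against 9.63% of all. The difference was positive, meaning higher in milrinone, for 6 of the 7, against 62.0% of all tested probe sets. The median log2 difference of the 7, which count Smg1 by 3 probe sets, was 0.19 and that of all tested probe sets was 0.06. With 1 probe set a gene, the brightest tested, the median over the 5 genes was 0.08. Without untreated 1 the median of the 7 was 0.05, where that of all tested probe sets was 0.03.

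**Figure D1:**
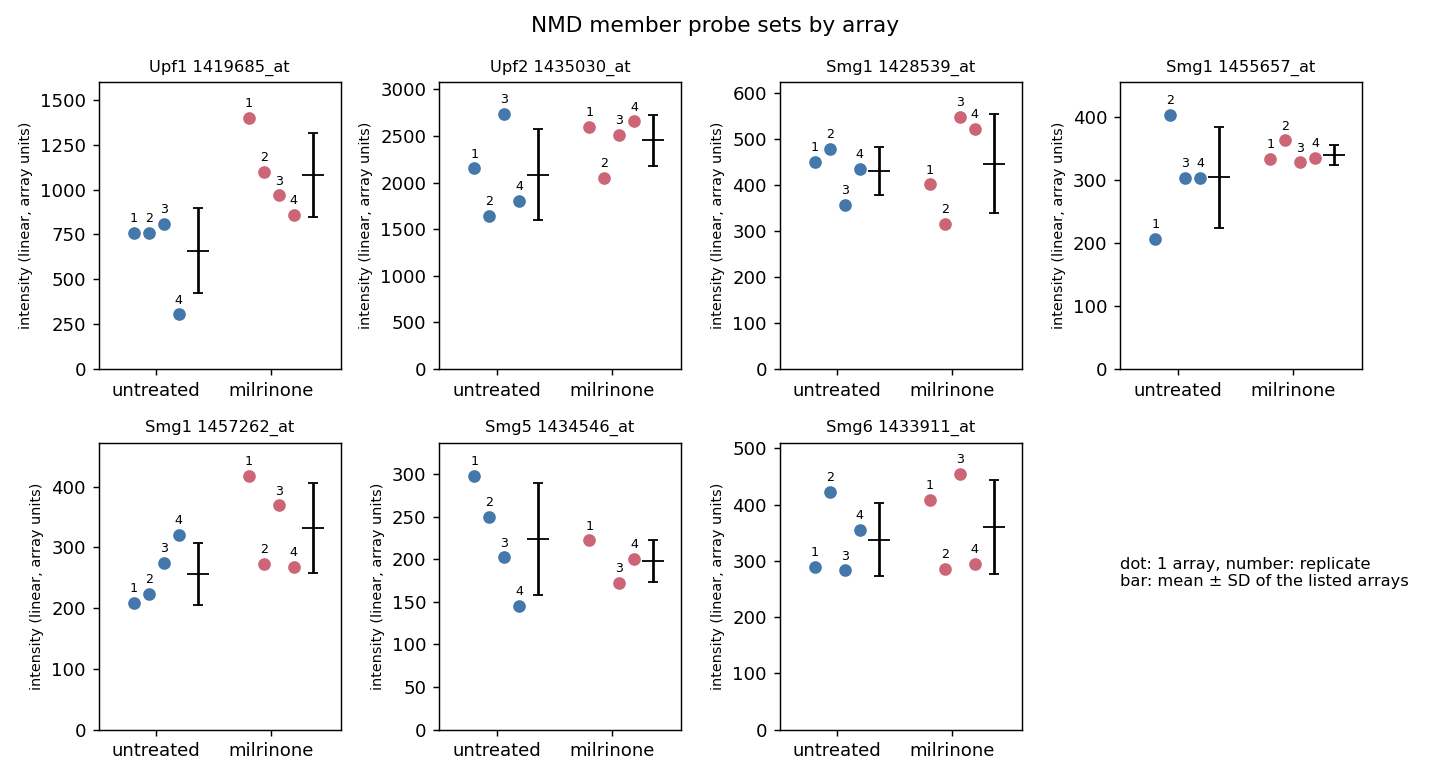
Intensity (linear, array units) of the 7 tested NMD probe sets in untreated (blue) and milrinone (red) samples. Each dot is 1 array with its replicate number, and the black bar is the mean ± SD of the listed arrays. For Upf1 all milrinone arrays lie above all untreated arrays, from 861 against at most 810, and in the other panels the groups overlap.

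Upf1 encodes the RNA helicase at the centre of the pathway and was measured by 1 probe set, 1419685_at. Its intensity was 760, 757, 810 and 304 on untreated arrays 1 to 4, and 1398, 1097, 967 and 861 on milrinone arrays 1 to 4. The groups did not overlap, and untreated 4 lay far below the other 3 untreated arrays. Such a separation with milrinone higher was seen in 5.06% of all tested probe sets. Untreated samples averaged 658 ± 237 (SD, n = 4) and milrinone samples averaged 1081 ± 232 (SD, n = 4). On the log2(intensity + 16) scale, on which all differences are given, milrinone was higher by 0.77 (SE 0.30, 95% interval 0.12 to 1.43), or 1.71-fold. This difference did not pass among all tested probe sets (limma, unadjusted p = 0.0248, adjusted p = 0.493). Considered alone it had an exact permutation p of 0.0286 (two-sided), the smallest that 4 against 4 arrays can give.

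The size of the Upf1 difference exceeded that of 99.7% of all tested probe sets, counted with sign. Its spread within groups was also wide, with a residual SD of 0.51 against a median of 0.23 over all tested probe sets, and 92.3% of them had a smaller one. Without untreated 4 the Upf1 difference was 0.45 (95% interval 0.07 to 0.83, limma adjusted p = 0.347).

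The 3'-to-5' ratio of the Actb control probe sets, which reflects RNA integrity and amplification, shared its extremes with the Upf1 level. Untreated 4 had the lowest ratio, 6.87, and the lowest Upf1 level, 304. Milrinone 1 had the highest ratio, 20.4, and the highest Upf1 level, 1398. The ratio was 8.94, 11.2 and 13.1 on untreated 1 to 3 and 11.6, 15.0 and 13.7 on milrinone 2 to 4. Untreated 3 and milrinone 4, with close ratios of 13.1 and 13.7, had Upf1 levels of 810 and 861, and untreated 2 and milrinone 2, with ratios of 11.2 and 11.6, had levels of 757 and 1097. Among milrinone 2 to 4 the order differed, since milrinone 2 had the lowest ratio and the highest Upf1 level of these 3. The Gapdh control had ratios of 7.04, 6.46, 6.23 and 7.68 on untreated 1 to 4 and 6.91, 8.25, 6.78 and 6.09 on milrinone 1 to 4, so untreated 4 had the highest Gapdh ratio of its group. The part of RNA integrity or amplification in the Upf1 difference was not tested. The cumulus, granulosa and theca markers summed to 85758, 19616, 22290 and 22783 on untreated 1 to 4, where Upf1 was 760, 757, 810 and 304. They summed to between 2690 and 3760 on the milrinone arrays. The part of other cells in the Upf1 difference was not tested.

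**Figure D2:**
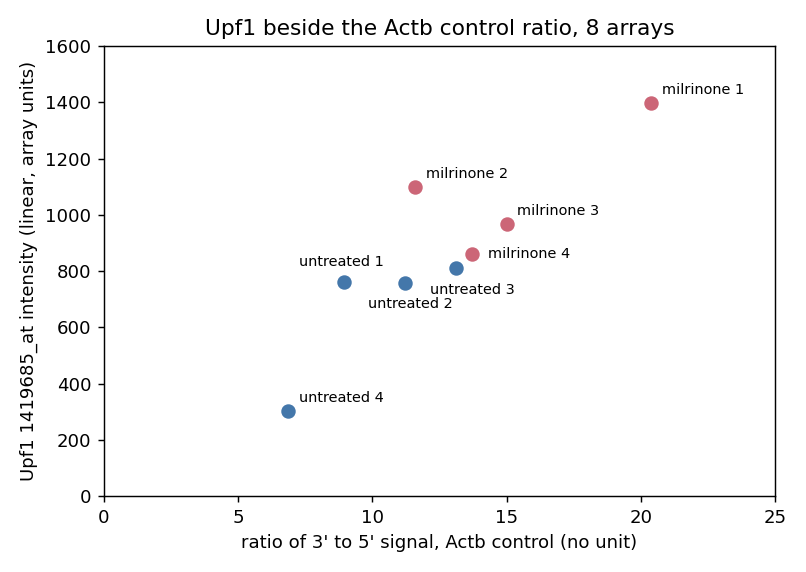
Upf1 intensity (vertical axis, linear array units) against the 3'-to-5' ratio of the Actb control (horizontal axis, no unit). Each dot is 1 array, blue for untreated and red for milrinone. Untreated 4 is lowest on both axes, at 6.87 and 304, and milrinone 1 is highest on both, at 20.4 and 1398.

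The 3 genes whose level over the 8 arrays was most like that of Upf1 were Fbrs, Sipa1l1 and Ap3s2. Likeness was the root mean square difference between array-wise deviations from each gene's own mean on the log2 scale. It was 0.20 for Fbrs, 0.21 for Sipa1l1 and 0.21 for Ap3s2, against a median of 0.61 over the 13305 probe sets compared. Their levels ran from 36.3 on untreated 4 to 129 on milrinone 1 for Fbrs, from 300 to 882 for Sipa1l1 and from 71.0 to 313 for Ap3s2. That they share these extremes with Upf1 follows from how they were chosen, and the likeness rests on 8 arrays common to all the genes.

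Upf2, the adaptor between UPF1 and the UPF3 proteins, had 1 tested probe set, 1435030_at. Its intensity was 2152, 1643, 2740 and 1806 across the untreated arrays and 2594, 2053, 2515 and 2658 across the milrinone arrays. The groups overlapped, since untreated 3 was the highest array of all 8 and milrinone 2 lay below untreated 1. The means were 2085 ± 485 (SD, n = 4) and 2455 ± 274 (SD, n = 4), a log2 difference of 0.25 (SE 0.16, 95% interval -0.11 to 0.62). It did not pass (limma adjusted p = 0.594). Leaving out untreated 3 gave 0.39 (limma adjusted p = 0.383) and leaving out untreated 2 gave 0.15. The other probe set of Upf2, 1445777_at, was empty on all 8 arrays.

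Smg1, the kinase that phosphorylates UPF1, was the member with the most probe sets, and 3 of its 4 were tested. Probe set 1428539_at had 451, 479, 358 and 435 across the untreated arrays and 402, 316, 548 and 523 across the milrinone arrays. Milrinone 3 and 4 were above and milrinone 1 and 2 below most untreated arrays, and the difference was 0.03 (95% interval -0.40 to 0.46; limma adjusted p = 0.964). It became -0.05 without untreated 3, -0.08 without milrinone 3 and -0.05 without milrinone 4. Relative to the median of all tested probe sets it was -0.03 as reported, -0.09 with quantile normalization and -0.03 when arrays were centred on the median.

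Probe set 1455657_at of Smg1 had 207, 404, 303 and 303 across the untreated arrays and 334, 363, 328 and 335 across the milrinone arrays. The milrinone arrays lay close together, with an SD of 15.7 around a mean of 340, inside the range set by untreated 1 and untreated 2. The difference was 0.19 (95% interval -0.24 to 0.61; limma adjusted p = 0.734). Without untreated 1, its lowest array, the difference was 0.03.

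Probe set 1457262_at of Smg1 had 209, 223, 274 and 321 across the untreated arrays and 418, 272, 369 and 268 across the milrinone arrays. Milrinone 1 and 3 lay above all untreated arrays, while milrinone 2 and 4 lay among them. The difference was 0.34 (95% interval -0.10 to 0.78; limma adjusted p = 0.566), and it was higher than that of 91.8% of all tested probe sets. The 3 intervals of Smg1 overlapped widely, and whether its probe sets differed in response was not tested. The fourth, 1442925_at, was listed on untreated 4 at 23.5 and on milrinone 3 at 16.3 only.

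Smg5, the adaptor that binds phosphorylated UPF1 and leads to its dephosphorylation, had 1 tested probe set, 1434546_at. Its intensity was 298, 250, 202 and 145 across the untreated arrays and 222, 172 and 200 on milrinone 1, 3 and 4, with no value on milrinone 2. The milrinone values lay within the untreated range. The means were 224 ± 65.5 (SD, n = 4) and 198 ± 24.9 (SD, n = 3), and the fit used these 7 arrays. The difference was -0.13 (95% interval -0.66 to 0.40; limma adjusted p = 0.862), the only negative one among the 7 tested NMD probe sets. It was 0.02 without untreated 1. With arrays centred on ribosomal protein genes it was 0.06, where all tested probe sets had a median of 0.23, and relative to that median it was -0.17 against -0.19 as reported. The other probe set of Smg5, 1451797_at, was empty on all 8 arrays.

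Smg6, the endonuclease that cuts NMD targets near the stop codon, had 1 tested probe set, 1433911_at. It had 290, 422, 283 and 355 across the untreated arrays and 408, 285, 454 and 295 across the milrinone arrays. Both groups split into a higher and a lower pair of arrays over nearly the same range. The means were 337 ± 64.8 (SD, n = 4) and 361 ± 83.8 (SD, n = 4), with a difference of 0.08 (95% interval -0.36 to 0.53; limma adjusted p = 0.895). Without milrinone 3 it was -0.03. With quantile normalization, in which all tested probe sets had a median of -0.13, it was -0.17. Of its untested probe sets, 1425883_at was listed on milrinone 1 only, at 16.7, and 1445418_at on untreated 4 only, at 139.

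**Figure D3:**
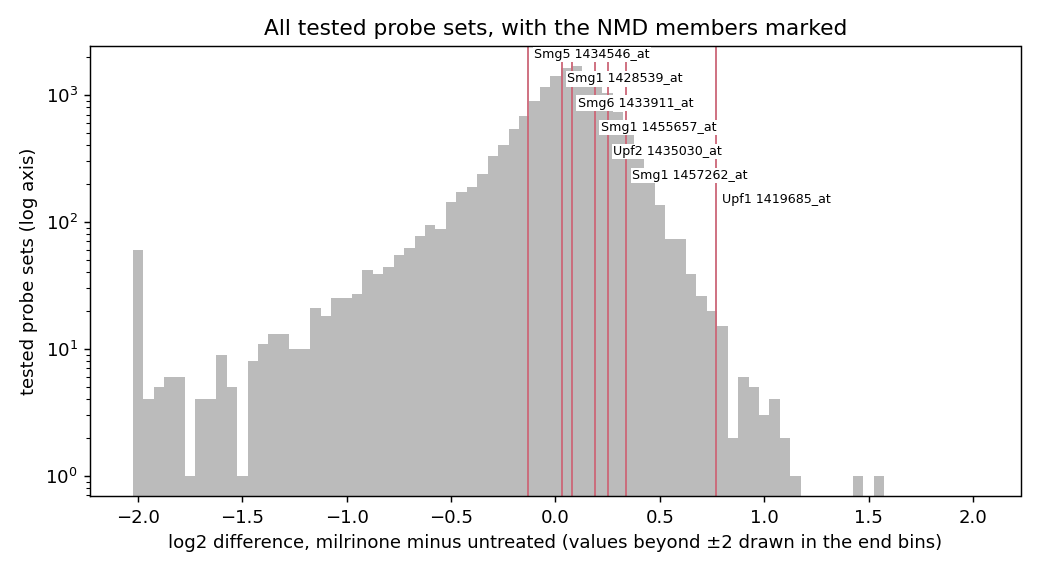
Distribution of the log2 difference, milrinone minus untreated, over the 16288 tested probe sets (grey, log count axis), with the 7 tested NMD probe sets as red lines. Upf1 at 0.77 lies in the right tail, above 99.7% of the probe sets, and the other 6 lie between -0.13 and 0.34.

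The 95% intervals give the differences that remain compatible with these arrays. They reached from 0.927-fold to 1.53-fold for Upf2 and from 0.778-fold to 1.44-fold for Smg6. For Smg5 they reached from 0.633-fold to 1.32-fold, and for the 3 probe sets of Smg1 from 0.757-fold at the lowest to 1.72-fold at the highest. A value that missed the threshold does not show that a gene was equal in the groups. For the NMD members other than Upf1, the residual SD of 0.26 to 0.34 was larger than that of 57.7% to 76.4% of all tested probe sets.

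Other genes of the pathway were taken as a list of 28, of which 24 had a probe set and 21 were tested, each by its brightest tested probe set. None passed the limma test, 0 of 21, and 4 had an unadjusted p under 0.05, all 4 lower in milrinone, against 9.63% of all tested probe sets in either direction. The differences were positive for 12 and negative for 9, against 62.0% positive over all, with a median of 0.02. Of all 37 tested probe sets of this list, 5 had an unadjusted p under 0.05 (limma). Of the 37, 24 differences were positive and 13 negative. The SMG1 partners Smg8 and Smg9 differed by -0.04 and 0.15 (limma adjusted p = 0.936 and 0.710). Dhx34, a helicase that promotes UPF1 phosphorylation, differed by 0.03, and Nbas by 0.02. Eif4a3, Casc3 and Mov10 had a probe set but did not meet the listing rule.

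Pabpc1, the cytoplasmic poly(A)-binding protein whose closeness to a stop codon counteracts NMD, had the smallest p of this list. Its intensity was 3723, 1447, 1205 and 1265 across the untreated arrays and 609, 419, 479 and 875 across the milrinone arrays. The groups did not overlap, as for 2.74% of all tested probe sets in this direction, and untreated 1 was far above the rest. The difference was -1.54 (SE 0.35, 95% interval -2.32 to -0.76), which did not pass (limma adjusted p = 0.265). Without untreated 1 it was -1.16 (adjusted p = 0.111), and with array weights -1.31 (adjusted p = 0.0509). The somatic marker sum was also highest on untreated 1 and lower on every milrinone array than on any untreated one, and the part of other cells in this difference was not tested.

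Pabpc4, a related poly(A)-binding protein, differed by -0.33 with its brightest probe set (limma adjusted p = 0.522). It differed by -0.53 with another (limma, unadjusted p = 0.00691, adjusted p = 0.456). Pnrc2, which links UPF1 to decapping, differed by -1.19 (limma adjusted p = 0.506) at low intensities of 208, 31.5, 47.8 and 26.5 in untreated and 12.3, 15.0 and 22.1 in milrinone samples. It was empty on milrinone 1, and without untreated 1 its difference was -0.65. The cap-binding subunit gene Ncbp1 differed by -0.67 (limma adjusted p = 0.514), or -0.37 without untreated 1, where it had 448 against 155 to 213 on the other untreated arrays. Ruvbl1, an ATPase that regulates SMG1 and related kinases, differed by -0.46 (limma adjusted p = 0.494), and the exon junction factor gene Rnps1 by 0.18 (adjusted p = 0.514).

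Genes with transcripts known from other cells to be degraded by NMD were taken as a list of 21 besides Smg5. Which of a gene's transcripts a probe set measures is not known here, so the values are not a readout of NMD. Of the 21 genes, 19 had a probe set and 15 were tested. None passed, 0 of 15, and 0 had an unadjusted p under 0.05 with its brightest probe set (limma). The differences were positive for 8 and negative for 7, against 62.0% positive over all tested probe sets, between -0.30 and 0.25, with a median of 0.00. Of all 36 tested probe sets of this list, 3 had an unadjusted p under 0.05, against 9.63% of all tested. These were dimmer ones of Hnrnpdl, Gadd45b and Srsf6, named after their values were seen, with differences of 0.55, 0.42 and -0.81 (limma adjusted p = 0.472, 0.512 and 0.494). The brightest ones of the same genes differed by -0.00, 0.01 and -0.06.

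Gas5, a noncoding RNA degraded by NMD through its short reading frame, had 1927, 945, 967 and 948 across the untreated arrays and 1153, 1087, 817 and 915 across the milrinone arrays. Only untreated 1 stood apart, and the difference of -0.21 (limma adjusted p = 0.764) became 0.04 without it. Snhg1, another noncoding host of small nucleolar RNAs, differed by 0.24 (adjusted p = 0.641). The stress genes Ddit3, Atf3 and Chac1 differed by 0.21, 0.23 and 0.25, and the splicing regulator gene Hnrnpl by -0.30, with adjusted p from 0.652 to 0.789 (limma).

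**Figure D4:**
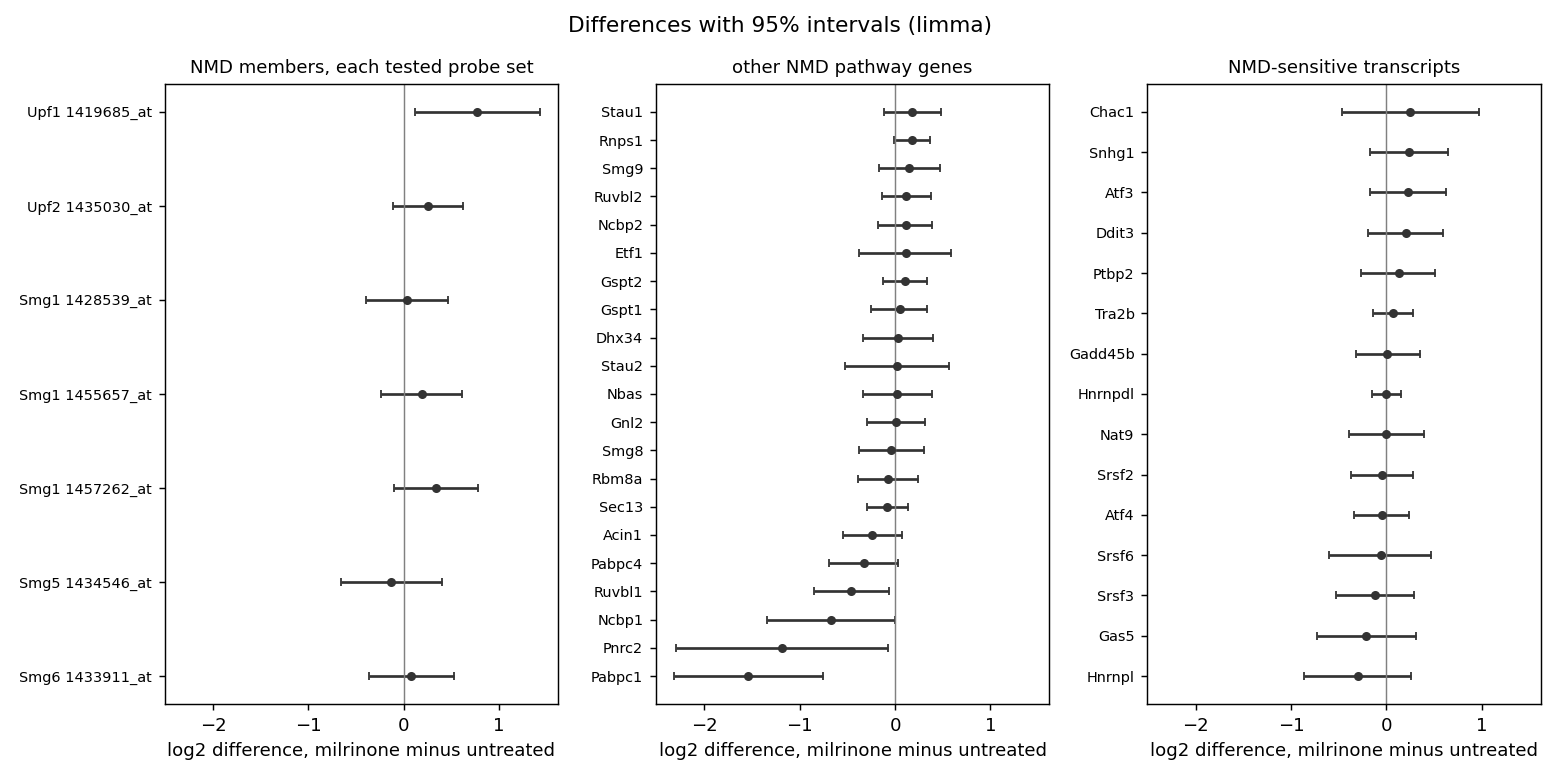
Log2 difference, milrinone minus untreated (horizontal axis), in 3 panels. They show the 7 tested NMD probe sets (left), 21 other pathway genes (middle) and 15 genes with NMD-sensitive transcripts (right). Each gene of the other lists is shown by its brightest tested probe set. Points are estimates and bars 95% intervals from limma. Upf1 at 0.77 is the highest point of the 3 panels and Pabpc1 at -1.54 the lowest, and none passed after adjustment.

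The NMD values were recomputed under 20 other settings, of which the filter for values on all 8 arrays left out Smg5. In the settings that tested them, 0 of the 7 probe sets passed the threshold. Upf1 stayed higher in milrinone in all 20, between 0.45 and 0.94, with limma adjusted p from 0.347 to 0.772. Upf2 and Smg1 1457262_at also kept their sign in all 20, between 0.09 and 0.42 and between 0.10 and 0.51. Smg1 1455657_at changed sign with quantile normalization only, at -0.06, which was 0.07 above the median of that fit. Smg1 1428539_at, Smg5 and Smg6 changed sign also when 1 array was left out.

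**Figure D5:**
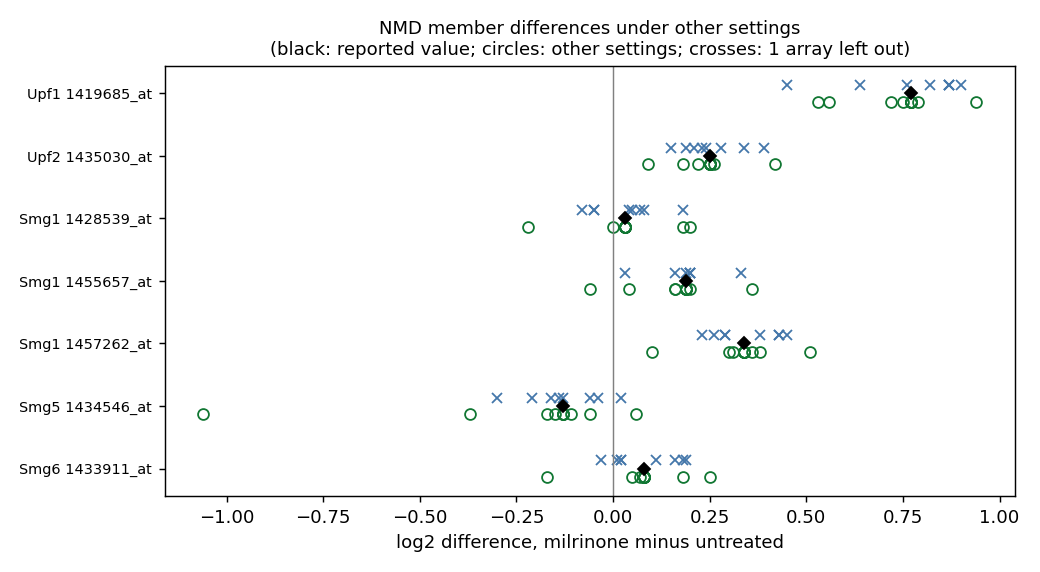
Log2 difference, milrinone minus untreated (horizontal axis), of the 7 tested NMD probe sets as reported (black diamonds), under other settings (green circles) and with 1 array left out (blue crosses). Upf1 spans 0.45 to 0.94, and the outlying circle of Smg5 at -1.06 is the setting in which the empty cell of milrinone 2 counts as 0.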

How the data were processed

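The deposited values are intensities on a linear scale, which the authors derived from scanned arrays. Between 48.4% and 58.7% of each array's cells were empty, and the rule for this, the software and the scaling are not stated in the labels. The deposited scaling was kept and empty cells were left empty. Intensities were analysed as log2(intensity + 16), which understates changes of dim probe sets. Probe sets other than controls with values on 3 or more arrays of each group were tested on all 8 arrays with no covariate. The test was limma's moderated fit (version 3.58.1, R 4.3.3; lmFit and eBayes, trend = TRUE), two-sided. P-values were adjusted over all 16288 by Benjamini-Hochberg, with a threshold of 0.05. The script was tested on simulated data with equal noise on all arrays and larger differences than those of the NMD members. That test does not cover differences as small as theirs or an array apart from the others. Symbols came from the platform annotation, updated through Entrez identifiers to RefSeq (GRCm38.p6). Probe sets with several symbols were assigned to no gene and left out of the likeness. They stayed among the tested probe sets, in the adjustment and in the shares over all. Array files give no coordinates or probe sequences, so none are printed. Probe set names ending in _s_at or _x_at can bind other transcripts, which touches, among the values printed, Pnrc2, Ncbp1, the brightest probe set of Pabpc4, Rnps1, Gas5, the dimmer one of Gadd45b and the brightest of Srsf6.

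The members and lists were chosen with earlier results of these data known. All members were named with every probe set. From each further list the rule named up to 6 genes with the smallest unadjusted p. Smg8, Smg9, Dhx34 and Nbas, and the second probe set of Pabpc4, were added for their role after their values were seen. Likeness was measured to the member with the widest range, among probe sets with 1 symbol listed on all 8 arrays. The other settings were pseudocounts of 1 and 64, 4 filters or rules for empty cells, 3 scalings, no trend, array weights, a replicate block and leaving out each array, in which a group of 3 needed 2 listed arrays. Plots were drawn in Python 3.11.15 (matplotlib 3.10.9).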

Additional observations from a re-analysis of the deposited data

Results flagged for a closer look

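In 3 of 34 groups of 4 arrays examined for the NMD members and the named genes, 1 array lay far from the other 3, where chance gives about 1 in 20, or 1.70. Over all tested probe sets listed on the 4 untreated arrays, 1 of these arrays stood apart in this way in 7.13%. The 34 groups include milrinone groups, while all 3 found were untreated. The 3 of 34 and the 7.13% therefore do not count like groups. The value given is the gap to the nearest array divided by the range of the group on the log2 scale. Upf1 was lowest on untreated 4 (0.930). Over the 15082 tested probe sets listed on all untreated arrays, untreated 4 was flagged as the lowest in 0.988%. That share counts every flagged gap, also those smaller than the Upf1 value. Pabpc1 was highest on untreated 1 (0.838), and so was Gas5 (0.968).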

How the results depend on the processing

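Of all tested probe sets, 19 passed, 0 of them higher in milrinone. The count was 12 when listed on all 8 arrays (0 higher) and 185 with empty cells set to 0 (8 higher). It was 53 with arrays centred on ribosomal protein genes (1 higher) and 93 with array weights (6 higher). Leaving out 1 array gave 8 (milrinone 3, 0 higher) to 69 (untreated 1, 1 higher). Without untreated 3 there were 18 calls, 3 of them higher. The counts for the NMD members and both lists stayed at 0 under all 20 settings. The median over all tested probe sets, 0.06 as reported, was -0.13 with quantile normalization and 0.23 with arrays centred on ribosomal protein genes. Signs turned for Smg1 1428539_at (-0.22 with quantile normalization, -0.00 centred on the median, -0.08 to 0.18 with 1 array left out), Smg6 (-0.17 with quantile normalization, -0.03 to 0.19 with 1 array left out), Smg1 1455657_at (-0.06) and Atf3 (-0.06) with quantile normalization, and Smg5 (0.06 centred on ribosomal protein genes, -0.30 to 0.02 with 1 array left out). With 1 array left out Gas5 ran from -0.29 to 0.04 and Chac1 from -0.03 to 0.47. The cause was not tested. Relative to the median of all tested probe sets, Upf1 was 0.71 as reported and 0.38 to 0.85 over the settings. Same-numbered arrays had correlations of -0.266 to 0.0333 between their deviations from group means. Over so few arrays this cannot tell whether they were collected or processed together. The replicate block gave 13 calls and 0.77 for Upf1 (limma adjusted p = 0.576). The number of arrays limits the precision.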
